A study of Danio rerio with 114 samples.

Results

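The genes aldh8a1 (ENSDARG00000036776), amacr (ENSDARG00000057435) and pex14 (ENSDARG00000028322) were followed through the oocyte-to-embryo transition of zebrafish (Danio rerio), in ski7-/- mutants and in wild type (WT). These 3 genes, of 31466 gene identifiers counted, were taken because their proteins are raised in ski7-/- embryos at the sphere stage in the study's protein measurements. That choice used protein levels of sphere-stage embryos (E4), so the genotype difference in RNA at that stage is given below as a description without a test. Changes within a genotype from an earlier stage to E4 were tested. Ski7 is a splice variant of the hbs1l gene and an adaptor of the cytoplasmic RNA exosome, which degrades RNA from the 3′ end. Per the study, mature eggs and early embryos do without nuclear transcription, and their RNA levels then change through RNA degradation. Levels measured in polyA-selected RNA also depend on the length of the polyA tail.

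All fish were of the TLAB strain, and no animal age was given in the labels. The ski7-/- fish came from a CRISPR/Cas9 line with a deletion in the ski7-specific exon of hbs1l, and TLAB fish without it served as WT. Each genotype was sampled in 3 replicates at 11 stages: oocytes of stage I (O1), II (O2), III (O3) and IV to V (O4), mature eggs that were unactivated (UNA), activated (ACT) or fertilized (FER), and embryos at the 2-cell (E1), 64-cell (E2), 1000-cell (E3) and sphere (E4) stage. The oocytes of each genotype came from the ovaries of 3 females, 1 female gave all 3 kinds of eggs of a replicate, and embryos were pooled. PolyA-selected RNA was sequenced at every stage in 66 libraries, and RNA depleted of ribosomal RNA (rRNA-depleted) was sequenced from oocytes and embryos in 48 libraries, which makes 114 libraries in all.

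The 3 proteins act in metabolism, with Amacr and Pex14 tied to the peroxisome and Aldh8a1 to aldehyde oxidation. Aldh8a1 is an aldehyde dehydrogenase, which in human oxidizes 2-aminomuconic semialdehyde in tryptophan breakdown and can oxidize retinal. Amacr (alpha-methylacyl-CoA racemase) turns branched-chain fatty acids and bile acid precursors into the form that peroxisomal beta-oxidation accepts. Pex14 is a membrane component of the docking complex through which enzymes are imported into the peroxisome. In the gene order of the reference, aldh8a1 is the next protein-coding gene to hbs1l on chromosome 23, pex14 is the 53rd protein-coding gene from hbs1l on the same chromosome, and amacr is on chromosome 21. The stretch around hbs1l therefore comes with the mutation in the line, and for aldh8a1, and possibly for pex14, an effect of the loss of Ski7 and an effect of linked sequence in the mutant line cannot be told apart by these samples.

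Between 2910639 and 145420525 reads were counted on genes in a polyA-selected library (median 9182535) and between 1439427 and 46600444 in an rRNA-depleted library (median 4649868). Levels are given as CPM, the reads of a gene after every library is scaled to the same total of such reads. Whether the libraries of the genotypes overlap was read from CPM. The log2 fold changes come from fits with a further scaling between libraries (TMM), and can differ from ratios of CPM. The reads of hbs1l, which include those of ski7, were lower in ski7-/- oocytes, with a median of 16.3 CPM in ski7-/- and 24.6 CPM in WT polyA-selected libraries of oogenesis, and were not called different in eggs or embryos. The deletion removes only a part of the locus, so that this count is a weak check of the labels. The 7 female germ line markers were detected in every period, with summed levels of 4192 to 7492 CPM in ski7-/- and 5029 to 7710 CPM in WT polyA-selected oocyte libraries. The 6 follicle cell markers that were matched summed to 8.62 to 160 CPM in ski7-/- and 8.29 to 174 CPM in WT polyA-selected oocyte libraries, and the ranges of the genotypes overlapped at each of the 4 oocyte stages in both kinds of library. These are measurements of whole oocytes, eggs or embryos, so that fewer cells of a type and less RNA per cell cannot be told apart. All 3 genes passed the filter on low values, a mean of at least 1 CPM over the libraries of a period without regard to genotype, in each of the 5 sets of libraries. The genotype difference was tested with edgeR's quasi-likelihood test at each stage, and for the average of a period, with p-values adjusted over all genes tested (Benjamini-Hochberg) and called under 0.05. These fits took all libraries of a period as independent, although the egg libraries of a replicate came from 1 female. In limma-voom fits with the replicate as a random block, the correlation within a replicate was 0.74 in eggs and 0.25 in oocytes of polyA-selected RNA. It was 0.47 in polyA-selected embryos, 0.42 in rRNA-depleted oocytes and 0.36 in rRNA-depleted embryos. The edgeR p-values of period averages can therefore overstate the evidence.

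aldh8a1 RNA was more abundant in ski7-/- mutants at every stage and in both kinds of library. The 3 ski7-/- libraries lay above the 3 WT libraries in 17 of the 19 comparisons of a stage, and overlapped with them in the polyA-selected libraries of O2 and the rRNA-depleted libraries of O4. The 17 include E4, the stage that chose the genes, in both kinds of library. Among all genes tested, the share whose ski7-/- libraries lay above the WT libraries was between 10.4% and 29.3% at a stage and 17.6% over the 19 comparisons pooled. Without E4, aldh8a1 was called higher at 12 of 17 comparisons of a stage. Of all genes tested, 2.64% to 11.6% were called higher in a comparison and 5.45% over the 17 pooled. Oocyte and embryo stages enter the 19 and the 17 comparisons in both kinds of library, so that these are not independent stages. aldh8a1 was called at 8 to 11 of the 17 when 1 of the 6 replicates was left out, the fewest without WT replicate 2 or ski7-/- replicate 2, and at 6 when each stage was fitted alone. The difference was about 2-fold in oocytes and larger in eggs and embryos.

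**Figure D1:**
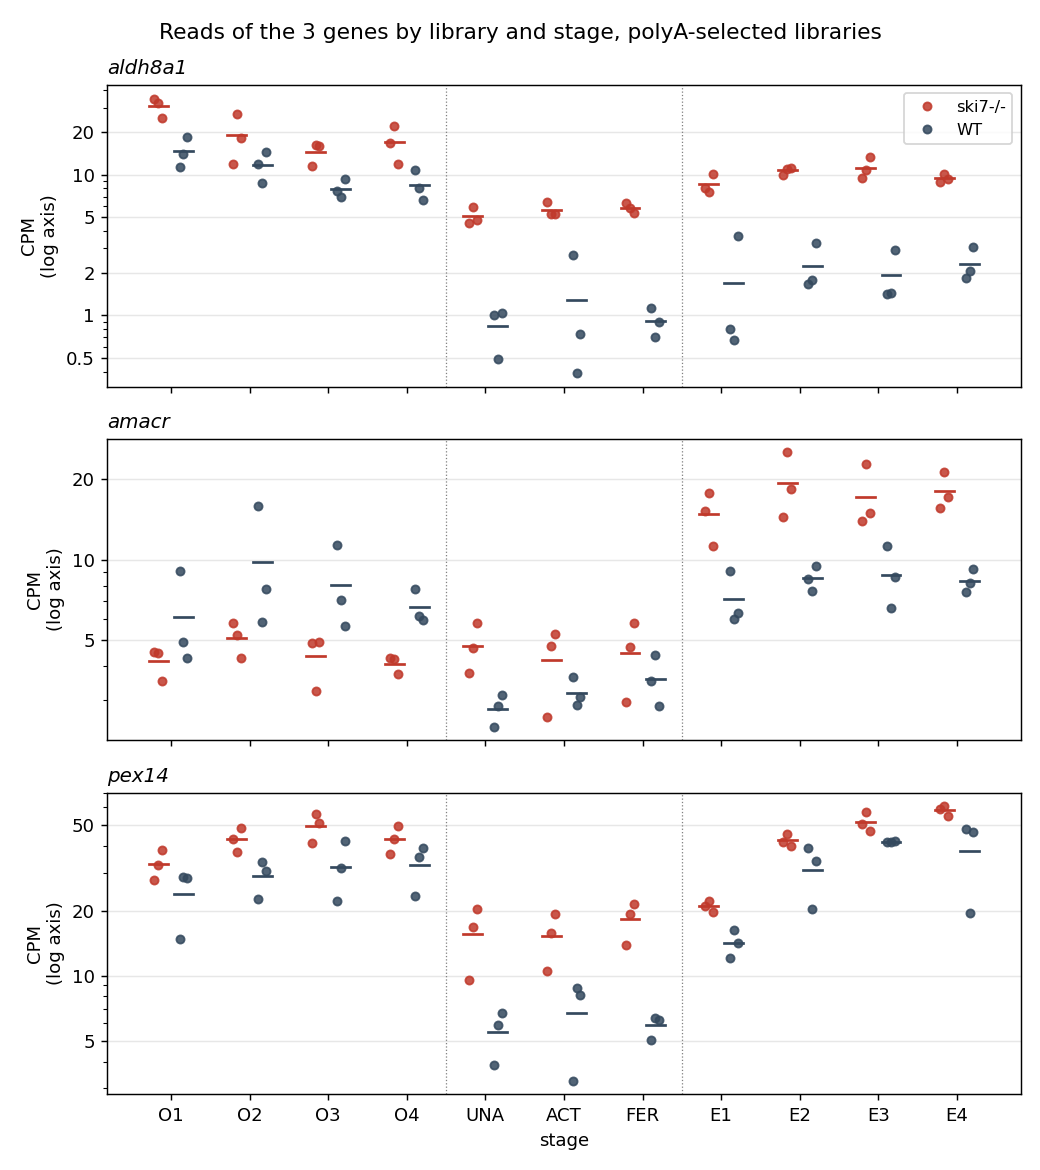
CPM (log axis) of aldh8a1, amacr and pex14 in each polyA-selected library by stage, with ski7-/- libraries in red left of WT libraries in dark blue and a line at the mean of 3 libraries. In eggs the 9 ski7-/- libraries of aldh8a1 sit between 4.55 and 6.37 CPM and the 9 WT libraries between 0.39 and 2.71 CPM, and amacr lies lower in ski7-/- oocytes and higher in ski7-/- embryos.

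In stage I oocytes, where aldh8a1 was most abundant, the polyA-selected libraries held 34.7, 32.2 and 25.3 CPM in ski7-/- and 11.4, 14.0 and 18.5 CPM in WT. The log2 fold change was 1.05 (SE 0.32, adjusted p = 0.048), where 7.45% of all genes were called, and this call was lost when any 1 replicate was left out (0.88 to 1.27, adjusted p = 0.059 to 0.24). At O2 the values were 12, 27.0 and 18.1 CPM in ski7-/- and 11.9, 8.77 and 14.5 CPM in WT, and the groups overlapped. The lowest ski7-/- value, replicate 1, came from the library with the lowest mean correlation with the others of its group among all libraries (0.878, where the median of polyA-selected libraries was 0.953), and the log2 fold change at O2 was 0.63 with it and 0.92 without it, not called in either case. At O4 they were 16.7, 22.2 and 11.9 CPM in ski7-/- and 10.8, 8.07 and 6.62 CPM in WT, without overlap but short of the threshold (log2 fold change 1.0, SE 0.32, adjusted p = 0.078). Averaged over O1 to O4 the log2 fold change was 0.88 (SE 0.16, adjusted p = 0.00023) in polyA-selected and 1.0 (SE 0.16, adjusted p = 5.7e-05) in rRNA-depleted libraries. In limma-voom with the replicate as a random block these averages were 0.89 (adjusted p = 0.0062) and 0.99 (adjusted p = 0.0060). The averages of oogenesis called 36.0% of all genes in polyA-selected and 42.4% in rRNA-depleted libraries, so that a call of such an average is not rare.

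The level of aldh8a1 fell during oogenesis in both genotypes. From O1 to O4 the log2 change was -0.99 (SE 0.31, adjusted p = 0.028) in ski7-/- and -0.94 (SE 0.32, adjusted p = 0.038) in WT in polyA-selected RNA, where 22.1% of genes were called in ski7-/- and 24.6% in WT. In rRNA-depleted RNA it was -1.15 (SE 0.32, adjusted p = 0.0083) in ski7-/- and -1.04 (SE 0.33, adjusted p = 0.017) in WT, where 36.6% of genes were called in ski7-/- and 37.5% in WT. In polyA-selected RNA the call in ski7-/- was lost without ski7-/- replicate 1 or 3 or WT replicate 1 or 2 (-0.95 to -0.86, adjusted p = 0.050 to 0.23), and the call in WT without ski7-/- replicate 3 or WT replicate 2 or 3 (-0.97 to -0.56, adjusted p = 0.053 to 0.44). In rRNA-depleted RNA the call in ski7-/- was lost without ski7-/- replicate 2 (-0.94, adjusted p = 0.071) or 3 (-0.96, adjusted p = 0.082), and the call in WT without WT replicate 3 (-0.64, adjusted p = 0.30). Between the last oocyte stage and the unactivated egg a further decrease was measured, with a log2 change of -1.20 (SE 0.41, adjusted p = 0.0089) in ski7-/- and -2.39 (SE 0.45, adjusted p = 5.9e-06) in WT, a step at which 71.4% of genes changed in ski7-/- and 73.1% in WT. Without ski7-/- replicate 1 the decrease in ski7-/- was -1.10 (adjusted p = 0.073).

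In mature eggs little aldh8a1 was measured in the polyA-selected WT libraries. Unactivated eggs held 4.55, 5.92 and 4.80 CPM in ski7-/- and 1.01, 0.49 and 1.04 CPM in WT. Activated eggs held 6.37, 5.22 and 5.29 CPM in ski7-/- and 2.71, 0.39 and 0.74 CPM in WT, and fertilized eggs held 6.29, 5.76 and 5.38 CPM in ski7-/- and 1.12, 0.71 and 0.90 CPM in WT. All ski7-/- libraries of eggs were above all WT libraries of eggs, and the WT values rest on 3 to 49 reads in a library. The log2 fold change was 2.32 (SE 0.51, adjusted p = 0.0095) in UNA, 1.89 (SE 0.51, adjusted p = 0.026) in ACT and 2.35 (SE 0.52, adjusted p = 0.0089) in FER, where 12.8%, 11.4% and 15.3% of all genes tested were called. The call in ACT was lost without ski7-/- replicate 1, 2 or 3 and without WT replicate 2 or 3 (1.5 to 1.98, adjusted p = 0.071 to 0.11). Averaged over the 3 egg stages it was 2.19 (SE 0.30, adjusted p = 4.6e-05), which is 4.55-fold, and 249 of the 11120 genes tested had a larger value. Here 45.4% of all genes tested were called. In limma-voom with the replicate as a random block the egg average was 2.59 (SE 0.44, adjusted p = 0.00077). Between UNA and FER the level of aldh8a1 was not called different in either genotype (log2 change 0.13, SE 0.48, in ski7-/- and 0.11, SE 0.52, in WT, adjusted p = 1 each). No gene (0.0% in each genotype) was called in that comparison by edgeR (442 in ski7-/- and 436 in WT at an unadjusted p under 0.05), against 186 in ski7-/- and 15 in WT in a limma-voom fit with the female as a random block.

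The difference was also measured in embryos. In 2-cell embryos aldh8a1 had 8.09, 7.51 and 10.1 CPM in ski7-/- and 0.81, 0.67 and 3.64 CPM in WT. In 1000-cell embryos it had 9.45, 10.7 and 13.4 CPM in ski7-/- and 1.43, 1.45 and 2.92 CPM in WT. WT replicate 3 was the highest of the WT libraries at all 4 embryonic stages in polyA-selected RNA, and still lay below each ski7-/- library. The log2 fold change was 2.31 (SE 0.47, adjusted p = 0.0015) at E1, 2.23 (SE 0.46, adjusted p = 0.0035) at E2 and 2.50 (SE 0.46, adjusted p = 0.0011) at E3, where 24.9%, 13.8% and 13.7% of all genes were called. The average over E1 to E3 was 2.34 (SE 0.27, adjusted p = 1.2e-06, 46.0% of genes called), or 5.08-fold. At the sphere stage, the stage that chose the genes, the values were 8.83, 10.1 and 9.38 CPM in ski7-/- and 1.84, 2.07 and 3.05 CPM in WT.

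The rRNA-depleted libraries of embryos gave 6.42 to 11.6 CPM of aldh8a1 in ski7-/- and 0.43 to 5.88 CPM in WT. At E2 the 3 WT libraries held 4, 2 and 3 reads of aldh8a1, against 26, 46 and 59 reads in the ski7-/- libraries, so the WT level there is close to the limit of detection. The average log2 fold change over E1 to E3 was 2.72 (SE 0.31, adjusted p = 1.4e-06, 37.6% of genes called). At E4 the WT libraries spread widely, with 6.87, 9.65 and 10.9 CPM in ski7-/- and 5.88, 1.45 and 4.07 CPM in WT, and the log2 fold change was 1.29. From E1 to E4 no change of aldh8a1 was called in either genotype or kind of library. The largest estimate was 1.69 (SE 0.57, adjusted p = 0.23, where 1.27% of genes were called) in WT rRNA-depleted RNA, against 0.14 (SE 0.45, adjusted p = 0.999) in ski7-/- by the same fit, and without WT replicate 3 the change in WT polyA-selected RNA was 0.81 and called (adjusted p = 0.022). The period averages of aldh8a1 stayed called under all alternatives that were run, with log2 fold changes of 0.88 to 2.72 across the 5 averages. Among these alternatives, the study's filter of 10 CPM in 3 libraries was passed in embryos through ski7-/- libraries alone, and was not passed in eggs. The summed follicle cell markers, which reached at most 4.03 CPM in embryos, were also higher there in ski7-/-, with medians of 0.70 CPM in ski7-/- and 0.15 CPM in WT polyA-selected libraries and 2.25 CPM in ski7-/- and 0.08 CPM in WT rRNA-depleted libraries, and their part in the results in embryos was not tested. Of the 6 markers only 1 reached 1 CPM in polyA-selected and 2 in rRNA-depleted ski7-/- embryo libraries. In embryos gsdf was highest, with at most 1.60 CPM in polyA-selected and 3.83 CPM in rRNA-depleted RNA, whereas cyp19a1a, fshr and inha reached at most 0.07 CPM.

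**Figure D2:**
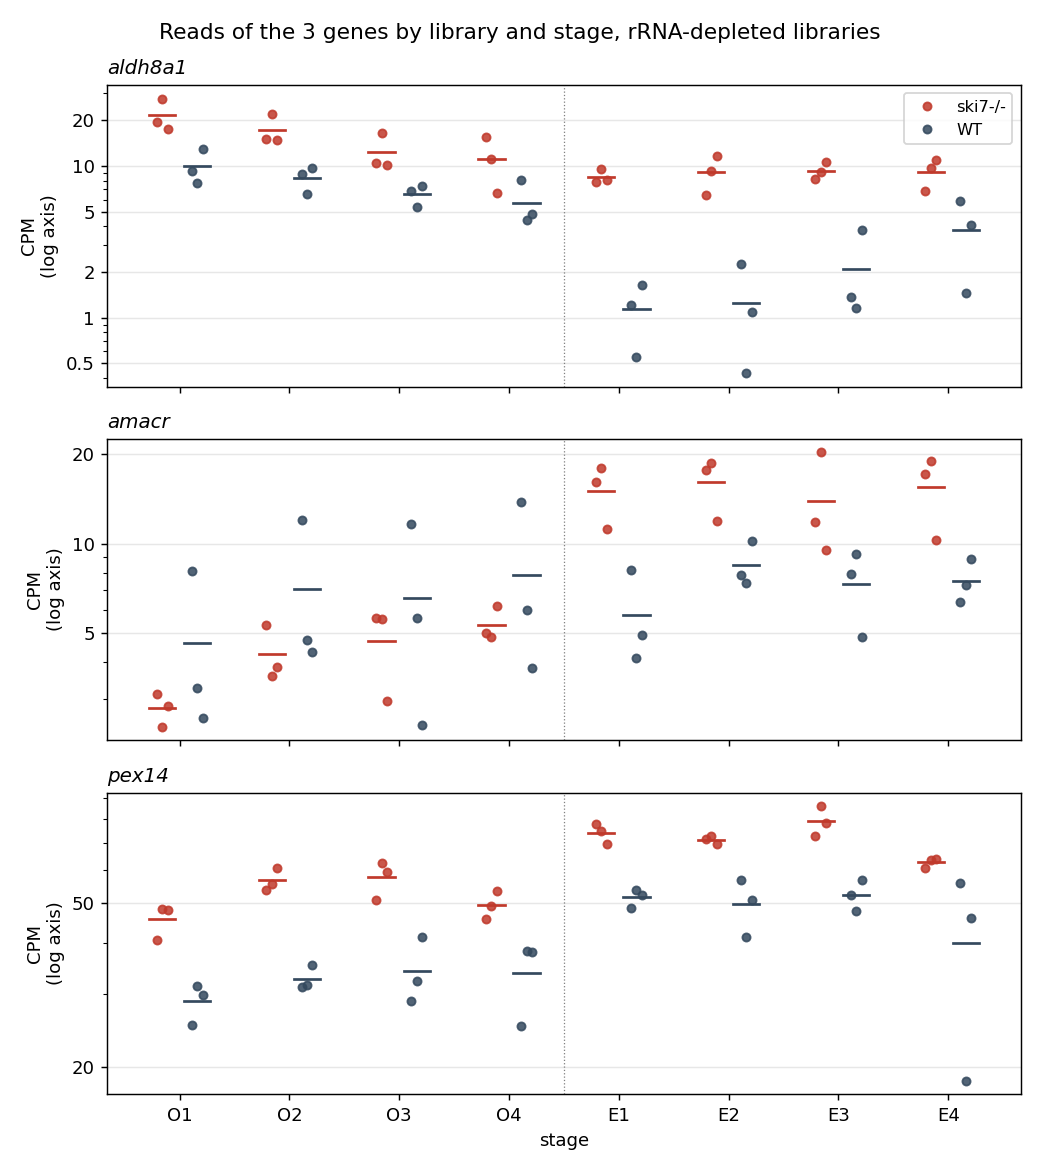
CPM (log axis) of the 3 genes in each rRNA-depleted library by stage, with ski7-/- libraries in red left of WT libraries in dark blue and a line at the mean of 3 libraries. For aldh8a1 the WT embryo libraries spread between 0.43 and 5.88 CPM, for amacr WT replicate 1 is the highest WT library at all 4 oocyte stages, and pex14 lies higher in ski7-/- at all 8 stages.

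The genotype difference of aldh8a1 was larger after oogenesis. In a limma-voom fit of all polyA-selected libraries with the replicate as a random block, the log2 fold change in eggs exceeded that in oocytes by 1.44 (SE 0.49, adjusted p = 0.033, 17.6% of genes called), and that in embryos exceeded that in oocytes by 1.76 (SE 0.45, adjusted p = 0.0069, 9.57% of genes called). Between embryos and eggs the difference was 0.33 (SE 0.56, adjusted p = 0.78). The first of these calls was lost when any of ski7-/- replicate 1, ski7-/- replicate 2, or WT replicate 1, 2 or 3 was left out (1.23 to 1.55, adjusted p = 0.050 to 0.13). The second was lost without WT replicate 1 (1.58, adjusted p = 0.065) and without WT replicate 2 (1.58, adjusted p = 0.096).

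amacr behaved differently: its RNA was less abundant in ski7-/- oocytes and more abundant in ski7-/- embryos. The 3 ski7-/- libraries lay below the 3 WT libraries in 3 of 19 comparisons of a stage, all in polyA-selected oocytes (O2, O3 and O4), and above them in 9, namely all 8 comparisons of embryos and unactivated eggs. The 9 include E4, the stage that chose the genes, in both kinds of library. Among all genes tested, between 7.19% and 17.7% lay below at a stage and 12.9% over the 19 comparisons pooled, and 17.6% lay above over the 19 comparisons pooled. Without E4, amacr was called higher at 4 of 17 comparisons of a stage (E1, E2 and E3 in polyA-selected and E1 in rRNA-depleted RNA), beside 5.45% of all genes tested called higher over the 17 pooled. It was called lower at none by edgeR, where 6.06% of all genes tested were called lower over the 17 pooled, with 8 of the 17 at an unadjusted p under 0.05 in either direction. The number called higher was 1 without ski7-/- replicate 2, WT replicate 2 or WT replicate 3, 3 without ski7-/- replicate 1, 6 without ski7-/- replicate 3 and 0 when each stage was fitted alone. With edgeR on the estimated counts of its transcript it was called lower at O1 in both kinds of library and higher at none. In the fit with the replicate number as a block it was called lower at 1 comparison.

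In stage II oocytes, amacr had 5.80, 5.23 and 4.30 CPM in ski7-/- and 15.9, 5.85 and 7.75 CPM in WT in polyA-selected RNA. In stage III oocytes it had 4.90, 3.24 and 4.94 CPM in ski7-/- and 11.4, 7.10 and 5.64 CPM in WT. The groups did not overlap at either stage, and WT replicate 1 stood highest at both. The average over oogenesis was a log2 fold change of -0.80 (SE 0.19, adjusted p = 0.0024, 36.0% of genes called), and without WT replicate 1 it was -0.45 (adjusted p = 0.029). In limma-voom with the replicate as a random block it was -0.73 (SE 0.23, adjusted p = 0.029). In rRNA-depleted RNA the ski7-/- and WT libraries of oocytes overlapped at all 4 stages, and the average of -0.63 (SE 0.28, adjusted p = 0.073) was not called. Without WT replicate 1, the highest WT library at all 4 oocyte stages in both kinds of library, that average was 0.04 (adjusted p = 0.88), and without WT replicate 3, the lowest WT library of rRNA-depleted oocytes, it was -0.97 (adjusted p = 0.0058). In the gene reads the direction in rRNA-depleted oocytes therefore rested on 1 WT replicate. With edgeR on the estimated counts of the transcript that average was -0.93 (adjusted p = 5.1e-05), for which no replicate was left out.

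In eggs amacr was low in both genotypes. Unactivated eggs held 3.79, 4.70 and 5.82 CPM in ski7-/- and 2.38, 2.84 and 3.11 CPM in WT, and the libraries overlapped after activation, with 2.59 to 5.81 CPM in ski7-/- and 2.84 to 4.39 CPM in WT. In unactivated eggs the ratio of mean CPM was 1.72, beside 1.40-fold in the edgeR fit. The average over eggs was a log2 fold change of 0.21 (SE 0.19, adjusted p = 0.37). With scaling by library size only it was 0.51 (adjusted p = 0.042), a scaling that moved the median log2 fold change of all genes by up to 0.305 in the comparisons of genotypes.

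Between the fertilized egg and the 2-cell embryo amacr rose in ski7-/- mutants. The log2 change was 1.52 (SE 0.34, adjusted p = 0.00055, 27.5% of genes called) in ski7-/- and 0.56 (SE 0.34, adjusted p = 0.20, 39.1% of genes called) in WT. In WT it was 1.01 (adjusted p = 0.010) with scaling by library size only and 1.10 (adjusted p = 7.1e-06) from the estimated counts of the transcript, and the difference between the genotypes in this step was not tested. In 2-cell embryos amacr had 15.2, 17.8 and 11.3 CPM in ski7-/- and 9.06, 6.03 and 6.31 CPM in WT. In 64-cell embryos it had 14.4, 25.2 and 18.3 CPM in ski7-/- and 8.45, 7.68 and 9.47 CPM in WT. The log2 fold change was 0.90 (SE 0.27, adjusted p = 0.019) at E1, 1.13 (SE 0.27, adjusted p = 0.0087) at E2 and 0.95 (SE 0.27, adjusted p = 0.022) at E3, where 24.9%, 13.8% and 13.7% of all genes were called. The average over E1 to E3 was 0.99 (SE 0.15, adjusted p = 4.1e-05, 46.0% of genes called) in polyA-selected and 1.05 (SE 0.20, adjusted p = 0.00036, 37.6% of genes called) in rRNA-depleted RNA, or 1.99-fold and 2.07-fold. In limma-voom with the replicate as a random block these averages were 1.19 (adjusted p = 0.00011) and 0.94 (adjusted p = 0.0083). At the sphere stage the values were 15.6, 21.3 and 17.2 CPM in ski7-/- and 7.61, 8.17 and 9.24 CPM in WT in polyA-selected RNA.

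The change of the amacr genotype difference between oocytes and embryos was tested directly, which does not test the sign of either. In the fit of all polyA-selected libraries the log2 fold change in embryos exceeded that in oocytes by 1.85 (SE 0.36, adjusted p = 0.00025, 9.57% of genes called), and this was called in all 10 alternatives, among which the transcript counts were not run. The difference between embryos and eggs was 1.01 (SE 0.34, adjusted p = 0.049, 9.13% of genes called), and this call was lost when any one replicate other than WT replicate 1 was left out (0.83 to 1.22, adjusted p = 0.059 to 0.26), and with scaling by library size only (0.73, adjusted p = 0.089). The difference between eggs and oocytes was 0.84 (SE 0.40, adjusted p = 0.14).

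**Figure D3:**
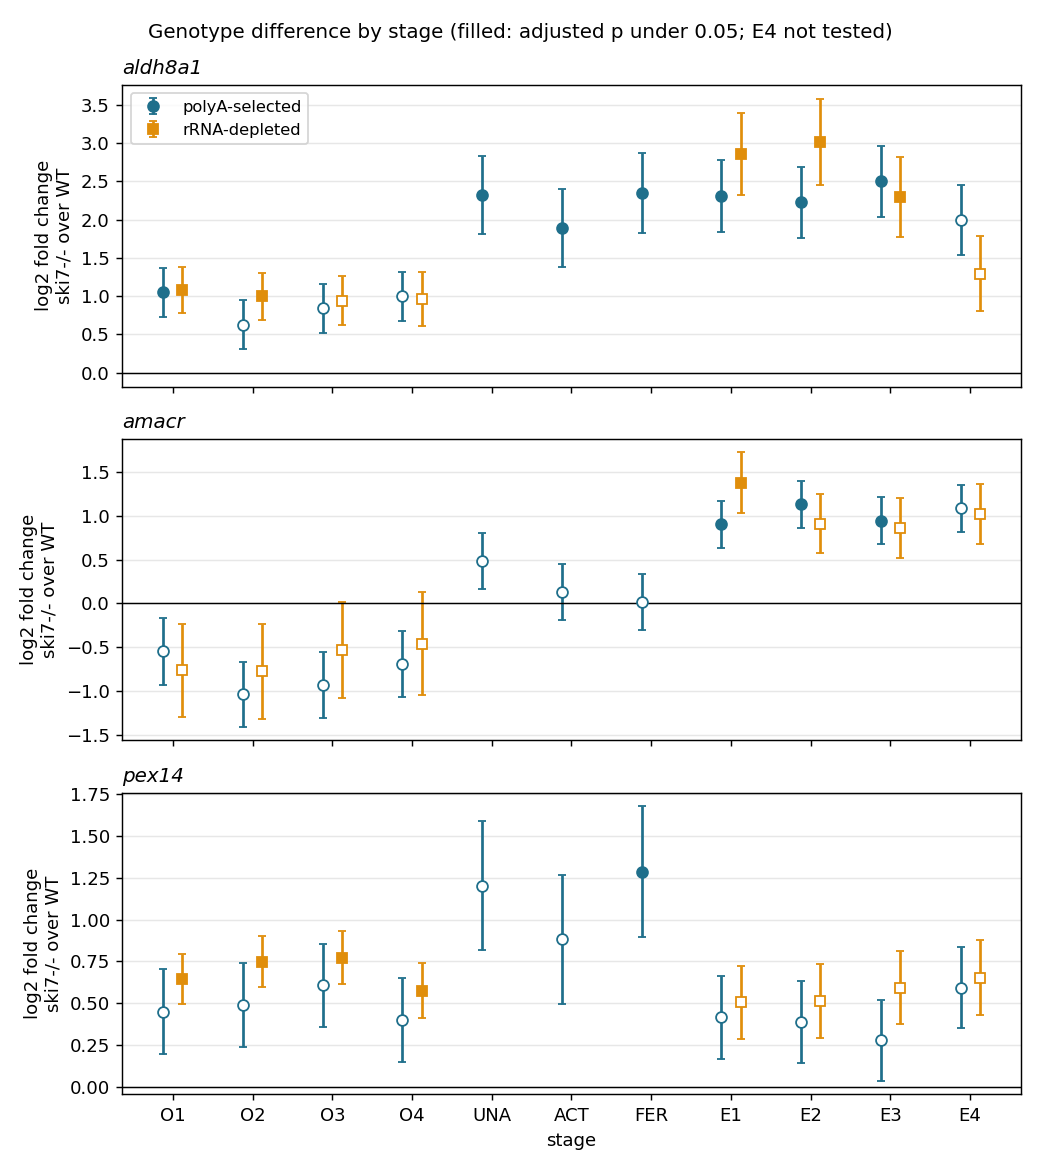
Log2 fold change of ski7-/- over WT at each stage for the 3 genes, with its standard error, in polyA-selected (circles) and rRNA-depleted libraries (squares). Filled symbols have an adjusted p under 0.05 and E4 was not tested. aldh8a1 is above 0 at every stage, amacr changes from negative values in oocytes to positive values in embryos, and pex14 is above 0 throughout with its highest values in eggs.

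The amacr difference in embryos depended on what was counted. The gene count takes all uniquely mapped reads on the gene, whereas Kallisto estimates the reads of a given transcript, and for each gene the transcript of the measured protein was taken. In embryos the summed estimated counts of the amacr transcript were 1.67 times the gene reads in ski7-/- and 3.37 times in WT in polyA-selected libraries, and 1.87 times in ski7-/- and 3.51 times in WT in rRNA-depleted libraries. In oocytes and eggs the ratio was between 2.1 and 3.11, and for aldh8a1 it was between 1.40 and 1.58 in all periods. With the estimated counts the average log2 fold change of amacr over E1 to E3 was 0.24 (adjusted p = 0.021) in polyA-selected and 0.17 (adjusted p = 0.32) in rRNA-depleted RNA, and that of oocytes was -0.73 (adjusted p = 5.3e-05) and -0.93 (adjusted p = 5.1e-05). Hence the higher level in ski7-/- embryos was about 2-fold in the reads of the gene and smaller in the estimate for this transcript, while the oocytes gave negative values in both. The source of the difference between the gene reads and the transcript estimate was not tested.

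**Figure D4:**
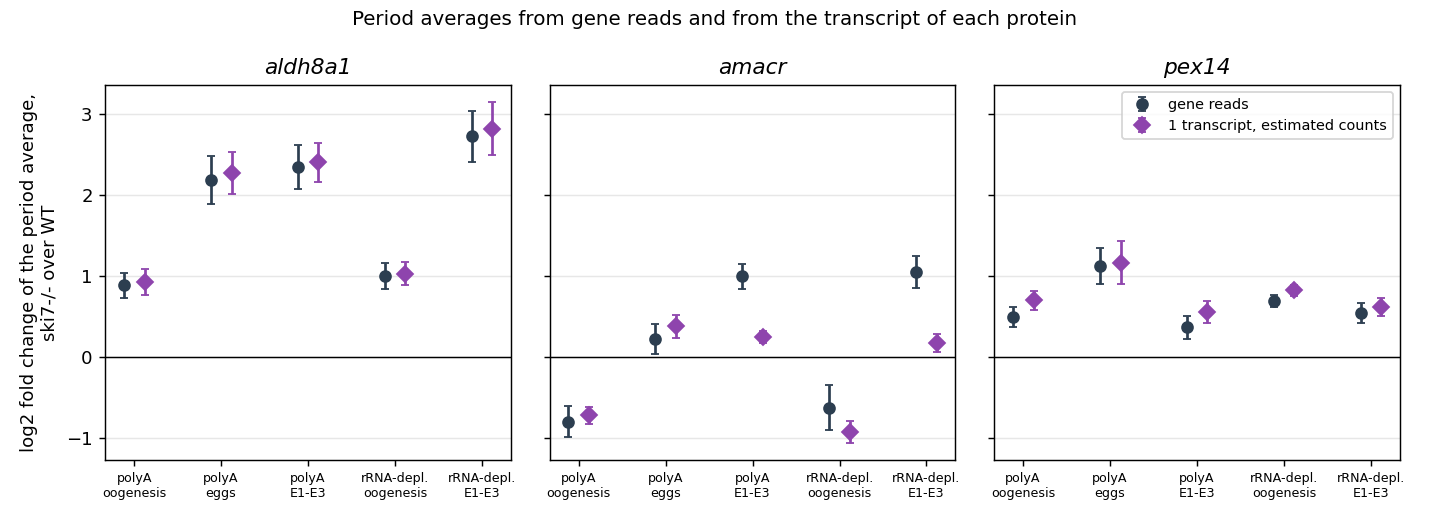
Log2 fold change of ski7-/- over WT averaged over a period, from gene reads (dark circles) and from the estimated counts of the transcript of each protein (purple diamonds), with standard errors. The values of aldh8a1 and pex14 lie close together, whereas for amacr the averages over E1 to E3 are 0.99 and 1.05 from gene reads and 0.24 and 0.17 from the transcript.

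pex14 was the most abundant of the 3 genes in CPM and had positive log2 fold changes of ski7-/- over WT at every stage, with smaller period averages than aldh8a1. Its 3 ski7-/- libraries lay above the 3 WT libraries in 16 of 19 comparisons of a stage, and the groups overlapped only in polyA-selected oocytes of O1, O3 and O4, beside 17.6% of all genes lying above over these comparisons pooled. The 16 include E4, the stage that chose the genes, in both kinds of library. Without E4 it was called higher at 5 of 17 comparisons of a stage, namely FER in polyA-selected RNA and all 4 oocyte stages in rRNA-depleted RNA, beside 5.45% of all genes called higher over the 17 pooled. The number of comparisons called was 3 without ski7-/- replicate 2 or ski7-/- replicate 3 and 8 without WT replicate 2, and it was 8 with the replicate as a random block and 10 with the replicate number as a block.

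In stage III oocytes pex14 had 41.2, 55.9 and 50.8 CPM in ski7-/- and 22.2, 31.3 and 42.0 CPM in WT in polyA-selected RNA. In rRNA-depleted RNA the same stage gave 50.7, 62.7 and 59.6 CPM in ski7-/- and 29.0, 32.4 and 41.5 CPM in WT. WT replicate 1 was the lowest WT library of pex14 at all 4 oocyte stages in both kinds of library. The average over oogenesis was a log2 fold change of 0.49 (SE 0.13, adjusted p = 0.0052, 36.0% of genes called) in polyA-selected and 0.69 (SE 0.08, adjusted p = 8.6e-07, 42.4% of genes called) in rRNA-depleted RNA, or 1.40-fold and 1.61-fold. By edgeR the first was 0.38 (adjusted p = 0.052) without ski7-/- replicate 3. In limma-voom with the replicate as a random block the averages were 0.52 (adjusted p = 0.012) and 0.72 (adjusted p = 1.2e-05). During oogenesis pex14 was not called different between O1 and O4 in either genotype or kind of library.

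Between O4 and the unactivated egg pex14 fell in polyA-selected RNA, by a log2 change of -0.98 (SE 0.32, adjusted p = 0.0060) in ski7-/- and -1.61 (SE 0.33, adjusted p = 2.5e-05) in WT. At this step 71.4% of genes tested were called in ski7-/- and 73.1% in WT. Eggs were sequenced only as polyA-selected RNA, so for all 3 genes RNA level and polyA tail length cannot be told apart there. In unactivated eggs pex14 had 9.56, 16.8 and 20.4 CPM in ski7-/- and 3.84, 5.89 and 6.74 CPM in WT. In fertilized eggs it had 13.9, 19.2 and 21.5 CPM in ski7-/- and 5.06, 6.38 and 6.26 CPM in WT. All 9 ski7-/- libraries of eggs were above all 9 WT libraries, with a lowest value of 9.56 CPM in ski7-/- against a highest value of 8.74 CPM in WT. In UNA the ratio of mean CPM was 2.83, beside 2.30-fold in the edgeR fit. Whether the libraries stay apart with the scaling of that fit was not tested. The log2 fold change was 1.20 (SE 0.39, adjusted p = 0.053) in UNA, 0.88 (SE 0.39, adjusted p = 0.15) in ACT and 1.29 (SE 0.39, adjusted p = 0.038) in FER, and the average was 1.12 (SE 0.22, adjusted p = 0.00097), or 2.18-fold. Of all genes tested, 12.8%, 11.4% and 15.3% were called in UNA, ACT and FER, and 45.4% in the average. In limma-voom with the replicate as a random block the egg average was 1.17 (SE 0.28, adjusted p = 0.0077). The call in FER was lost without ski7-/- replicate 2 or 3 and without WT replicate 2 or 3 (1.20 to 1.45, adjusted p = 0.056 to 0.12), and with no filter, with the transcript counts and with 1 fit per stage (adjusted p = 0.073, 0.078 and 0.054). The decrease in ski7-/- between O4 and UNA lost its call without ski7-/- replicate 1 (-0.81, adjusted p = 0.070) and without ski7-/- replicate 3 (-0.90, adjusted p = 0.060).

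In embryos the pex14 difference was smaller. In 2-cell embryos pex14 had 21.0, 22.2 and 19.7 CPM in ski7-/- and 12, 16.2 and 14.2 CPM in WT in polyA-selected RNA, and 77.8, 75.0 and 69.8 CPM in ski7-/- and 48.7, 53.8 and 52.5 CPM in WT in rRNA-depleted RNA. The average log2 fold change over E1 to E3 was 0.36 (SE 0.14, adjusted p = 0.044, 46.0% of genes called) in polyA-selected and 0.54 (SE 0.13, adjusted p = 0.0025, 37.6% of genes called) in rRNA-depleted RNA. With the replicate as a random block the first was 0.34 (adjusted p = 0.27), and it also lost its call without ski7-/- replicate 1, 2 or 3 and without WT replicate 3 (0.29 to 0.41, adjusted p = 0.065 to 0.20). At the sphere stage pex14 had 59.2, 60.7 and 55.0 CPM in ski7-/- and 47.9, 19.4 and 46.4 CPM in WT in polyA-selected RNA, and 60.9, 63.5 and 63.9 CPM in ski7-/- and 55.9, 18.5 and 45.9 CPM in WT in rRNA-depleted RNA. WT replicate 2 stood far below the other libraries of that stage in both kinds of RNA. No difference of the pex14 genotype effect between periods was called, with an estimate of -0.70 (SE 0.36, adjusted p = 0.23) for embryos minus eggs.

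The polyA-selected level of pex14 rose from the 2-cell to the sphere stage in both genotypes, by a log2 change of 1.02 (SE 0.25, adjusted p = 0.0014, 57.4% of genes called) in ski7-/- and 0.84 (SE 0.25, adjusted p = 0.0062, 61.2% of genes called) in WT. In WT this was 0.51 (adjusted p = 0.15) without WT replicate 1 and 0.63 (adjusted p = 0.11) without WT replicate 3. In rRNA-depleted RNA the change was -0.21 (SE 0.22, adjusted p = 0.92, 2.84% of genes called) in ski7-/- and -0.36 (SE 0.23, adjusted p = 0.80, 1.27% of genes called) in WT. The mean polyA-selected level was 0.28 of the rRNA-depleted level in ski7-/- and 0.27 in WT at E1, and 0.93 in ski7-/- and 0.95 in WT at E4. The corresponding ratio for amacr was between 0.98 and 1.24 in embryos of both genotypes. For aldh8a1 it was between 1.01 and 1.20 in ski7-/- embryos, and in WT embryos it was 1.51 at E1, 1.79 at E2, 0.92 at E3 and 0.61 at E4. The change between E1 and E4 was not compared between the kinds of library by a test. For none of the 3 genes was the genotype difference called different between polyA-selected and rRNA-depleted RNA, with estimates between -0.35 and 0.11 (adjusted p = 0.28 to 0.84, where 2.64% of genes were called in oocytes and 11.4% in embryos).

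Levels per transcript length were set side by side with the TPM of the transcripts of the 3 proteins, a unit with an equal sum over transcripts in every library. In polyA-selected embryos the median TPM in ski7-/- and WT was 43.3 and 34.1 for amacr, 16.6 and 3.09 for aldh8a1, and 13.7 and 9.96 for pex14. In eggs it was 12.1 and 7.99 for amacr, 8.12 and 1.16 for aldh8a1, and 5.29 and 1.71 for pex14. In oocytes it was 9.20 and 13.9 for amacr, 16.1 and 8.45 for aldh8a1, and 8.37 and 4.64 for pex14. On this scale amacr was the most abundant of the 3 transcripts in both genotypes in eggs and embryos, although pex14 had the most reads. This ranking depends on the transcript estimates and not on length alone. In polyA-selected WT embryos the estimated counts were 3.37 times the gene reads for amacr and 0.89 times for pex14.

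The polyA-selected profiles of the 3 genes were not alike. Over the means of the 22 polyA groups, Pearson's r of log2(CPM + 1) was 0.60 between aldh8a1 and pex14, -0.06 between aldh8a1 and amacr, and 0.28 between amacr and pex14. These correlations are descriptions over groups that share libraries and stages. Among 10308 genes, those most like aldh8a1 were hpca (r = 0.95), smim29 (0.95) and prmt3 (0.95). Those most like amacr were foxn1 (0.93), ctnnd2b (0.93) and grin2a (0.89), and those most like pex14 were tcf7l1b (0.96), gtf2f1 (0.96) and pgghg (0.95). Over the 16 rRNA-depleted groups these correlations were 0.89, 0.63 and 0.76 for aldh8a1, 0.84, 0.58 and 0.20 for amacr, and 0.66, 0.52 and 0.87 for pex14, in the same order.

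Since aldh8a1 is the neighbour of the mutated locus, the 5 nearest protein-coding genes on each side of hbs1l were examined. sgk1, a serum- and glucocorticoid-regulated kinase gene that follows aldh8a1 on the same side, was higher in ski7-/- mutants at all 19 comparisons of a stage, without overlap of the libraries. Over these comparisons pooled, 17.6% of all genes tested lay above. In polyA-selected eggs sgk1 had 46.1 to 68.6 CPM in ski7-/- and 6.17 to 15.2 CPM in WT. Its log2 fold change was 2.05 (SE 0.23, adjusted p = 1.0e-06) in polyA-selected oocytes, 2.44 (SE 0.14, adjusted p = 7.9e-09) in eggs and 2.34 (SE 0.33, adjusted p = 1.3e-05) in embryos. The genotype difference of sgk1 in eggs minus that in oocytes was 0.29 (SE 0.35, adjusted p = 0.62), beside 1.44 for aldh8a1. Among all genes tested, 18.3% to 23.9% were called higher and 17.7% to 23.9% lower in a period average. Of the other neighbours, mtfr2 was called higher in 4 of 5 period averages by log2 fold changes of 0.17 to 0.35, armc1l was called higher in eggs (1.16, SE 0.25, adjusted p = 0.0019) and lower in oocytes of both kinds of library (-0.28 and -0.18), and tbpl1 was called lower in eggs (-0.34) and higher in rRNA-depleted oocytes (0.28). With the female as a random block both calls of tbpl1 were lost (adjusted p = 0.12 and 0.14), as were those of armc1l in eggs (0.88, adjusted p = 0.18) and polyA-selected oocytes (adjusted p = 0.057) and that of mtfr2 in rRNA-depleted oocytes (adjusted p = 0.057), whereas all 5 calls of sgk1 were kept. hbs1l itself was called lower in oocytes, with -0.56 (SE 0.12, adjusted p = 0.0012) in polyA-selected and -0.43 (SE 0.07, adjusted p = 6.8e-05) in rRNA-depleted RNA. slc2a12 and nlrp12l were tested in 1 period average each and not called, and tcf21, myb and si:dkey-126g1.9 did not pass the filter on low values in any.

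**Figure D5:**
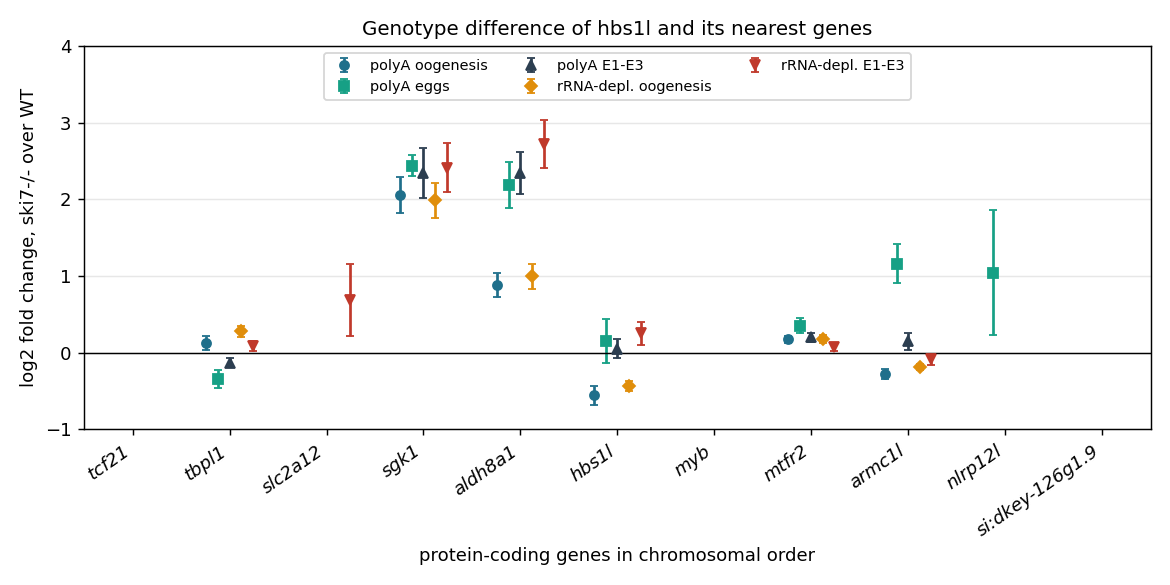
Log2 fold change of ski7-/- over WT averaged over a period, with its standard error, for hbs1l and the 5 protein-coding genes on each side in chromosomal order. Genes without a symbol drawn had too few reads to be tested. sgk1 and aldh8a1, on the same side of hbs1l, have the largest values, of 1.99 to 2.44 for sgk1 and 0.88 to 2.72 for aldh8a1.

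The other genes of the pathways did not share one direction. In retinoid metabolism no gene was called lower in any period average by the main edgeR fits. However, only 3 of its genes were tested in eggs and in embryos, and bco1 had negative log2 fold changes in embryos (-0.64 and -0.61). The 1 retinoid gene called higher in polyA-selected embryos was aldh8a1. Across the alternatives 0 to 1 of the retinoid genes were called lower in rRNA-depleted embryos. The counts of a list include those of aldh8a1, amacr and pex14 that belong to it, and these were chosen for raised proteins. Of 17 matched peroxins, the proteins that build and import into peroxisomes and that include pex14, 12 were tested in polyA-selected eggs, of which 4 were called higher by edgeR and none lower, where 23.9% of all genes tested were called higher and 21.5% lower. Across the alternatives 1 to 6 were higher and 0 to 1 lower in eggs, with 1 higher, pex14 itself, when the female was a random block. In polyA-selected embryos 2 of 12 were higher and 4 lower (22.1% and 23.9% of all genes), and in polyA-selected oocytes 3 were higher and 5 lower (18.3% and 17.7% of all genes). In rRNA-depleted libraries 20.3% of all genes were called higher and 22.1% lower in oocytes, and 19.3% higher and 18.4% lower in embryos. pex6, an ATPase that helps recycle the import receptor, was lower in oocytes (log2 fold change -0.76, adjusted p = 7.6e-05, in polyA-selected RNA) and higher in eggs (1.07, adjusted p = 0.0015) and polyA-selected embryos (0.55, adjusted p = 0.0018). pex19, the receptor of peroxisomal membrane proteins, was higher in eggs (1.23, adjusted p = 0.0022) and lower in embryos (-0.20 in polyA-selected and -0.25 in rRNA-depleted RNA). With the replicate as a random block the calls of pex6 in eggs (adjusted p = 0.22) and of pex19 in eggs (0.59, adjusted p = 0.42) and embryos (adjusted p = 0.18 and 0.087) were lost. The median log2 fold change of the list was 0.19 in eggs, -0.05 in polyA-selected embryos and -0.06 in polyA-selected oocytes, beside 0.07, -0.01 and 0.02 for all genes.

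Of 22 matched peroxisomal lipid enzymes, a list that includes amacr, 17 were tested in eggs with 2 higher and 3 lower, 19 in polyA-selected embryos with 3 higher and 4 lower, and 20 in polyA-selected oocytes with 2 higher and 4 lower. The shares of all genes tested called higher and lower were 23.9% and 21.5% in eggs, 22.1% and 23.9% in polyA-selected embryos, and 18.3% and 17.7% in polyA-selected oocytes. Across the alternatives 2 to 7 were higher and 3 to 4 lower in eggs, so that the balance of directions turned with the processing. ehhadh, the bifunctional enzyme of peroxisomal beta-oxidation, moved as amacr did in oocytes and embryos, with log2 fold changes of -0.54 (adjusted p = 0.0090) in polyA-selected oocytes, 0.66 (adjusted p = 0.0049) in eggs and 0.37 (adjusted p = 0.011) in polyA-selected embryos, but in rRNA-depleted embryos it was 0.08 (adjusted p = 0.66). acot8, an acyl-CoA thioesterase, was higher in oocytes (1.02 in polyA-selected and 0.93 in rRNA-depleted RNA) and in rRNA-depleted embryos (1.07, adjusted p = 0.026). scp2a, which encodes a sterol carrier protein with thiolase activity, was higher in eggs (0.91) and in embryos (0.75 in polyA-selected and 0.39 in rRNA-depleted RNA). cat, the catalase gene, was lower in polyA-selected eggs (-1.20) and embryos (-1.61, adjusted p = 1.0e-06), whereas in rRNA-depleted embryos it was -0.12 (adjusted p = 0.27). With the replicate as a random block the calls of ehhadh in polyA-selected embryos (adjusted p = 0.12) and of acot8 and scp2a in rRNA-depleted embryos (adjusted p = 0.087 and 0.094) were lost.

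Of 17 matched aldehyde dehydrogenases, which include aldh8a1, 13 were tested in polyA-selected embryos, with 5 higher and 3 lower, and 13 in eggs, with 4 higher and 2 lower. Of all genes tested, 22.1% were called higher and 23.9% lower in polyA-selected embryos, and 23.9% higher and 21.5% lower in eggs. Across the alternatives 2 to 8 were higher and 0 to 2 lower in eggs. aldh1l1, which oxidizes 10-formyltetrahydrofolate, was higher in eggs (3.05, adjusted p = 0.00013) and in embryos (2.57 in polyA-selected and 2.43 in rRNA-depleted RNA), but not in polyA-selected oocytes (-0.05, adjusted p = 0.92). aldh3a2a, a fatty aldehyde dehydrogenase, was lower in eggs (-0.47) and in embryos (-1.12 in both kinds of library). aldh7a1, of lysine breakdown, was lower in eggs (-0.65) and higher in embryos (0.21 and 0.42), and aldh4a1, of proline breakdown, was higher in eggs (0.53) and polyA-selected embryos (0.30) and lower in rRNA-depleted oocytes (-0.58). In oocytes 1 of 14 was higher and 2 lower in polyA-selected RNA (18.3% and 17.7% of all genes), and the 1 that was higher was aldh8a1. With the replicate as a random block the calls of aldh3a2a in eggs (adjusted p = 0.27), of aldh7a1 in polyA-selected embryos (adjusted p = 0.093) and of aldh4a1 in eggs and polyA-selected embryos (adjusted p = 0.48 and 0.13) were lost.

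Of 10 matched genes of the kynurenine pathway, in which human ALDH8A1 acts, 5 or 6 were tested in a period, and at most 2 were called in a given direction, aldh8a1 included. Among all genes tested, 17.7% to 23.9% were called in a given direction in a period average. kyat1, a kynurenine aminotransferase, was lower in oocytes (-1.69, adjusted p = 1.4e-05, in polyA-selected and -1.77, adjusted p = 1.7e-05, in rRNA-depleted RNA). haao, which makes the precursor of quinolinic acid, was higher in eggs (1.92, adjusted p = 0.00054), aadat, another aminotransferase, was higher in embryos (0.47 and 1.10), and afmid, the kynurenine formamidase, was lower in polyA-selected eggs (-0.79) and embryos (-0.39). The calls of haao in eggs (1.42, adjusted p = 0.16) and of afmid in embryos (adjusted p = 0.10) were lost with the replicate as a random block. Of 11 matched genes of retinoid metabolism, 6 were tested in polyA-selected oocytes with 3 higher and 0 lower, and 5 in rRNA-depleted oocytes with 4 higher and 0 lower, aldh8a1 included. Of all genes tested, 18.3% were called higher and 17.7% lower in polyA-selected oocytes, and 20.3% higher and 22.1% lower in rRNA-depleted oocytes. bco1, which cleaves carotene to retinal, was higher in oocytes (2.44, adjusted p = 8.7e-08, in polyA-selected RNA) and in eggs (0.79, adjusted p = 0.0091), and cyp26a1, which degrades retinoic acid, was higher in oocytes (1.52, adjusted p = 2.0e-09, in polyA-selected RNA). Only 3 genes of this list, aldh8a1 included, were tested in embryos of either kind of library. There bco1 had -0.64 in polyA-selected and -0.61 in rRNA-depleted RNA and was not called by edgeR (adjusted p = 0.24 and 0.17). rbp4, a retinol carrier, was called only in rRNA-depleted oocytes (0.83, adjusted p = 0.033), a call lost with the random block (0.54, adjusted p = 0.35), and aldh1a2, which makes retinoic acid, had 1.02 and 1.15 in oocytes and was not called (adjusted p = 0.069 and 0.094).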

How the data were processed

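RNA-seq was made from zebrafish oocytes, eggs and embryos in 114 libraries, each taken as 1 replicate of a group by its labels. Per the study's methods and the submitters' processing notes, reads were aligned with HISAT2 2.1.0 to GRCz11, and the deposited counts are whole numbers of strand-specific reads per gene, made with HTSeq 0.9.1. The authors also deposited the TPM and the estimated counts of each transcript from Kallisto 0.43.0. The estimated counts were rounded to whole numbers and 1 transcript was used per gene.

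CPM were computed from reads on genes. Reads on no gene came to 11.6 to 22.4% of the gene reads in polyA-selected and 14.0 to 41.9% in rRNA-depleted libraries and were left out. Genes with a mean of at least 1 CPM over the libraries of a period were fitted with edgeR 4.0.16 (quasi-likelihood, TMM; R 4.3.3), separately for 5 sets of libraries. The study's filter of 10 CPM in 3 libraries was an alternative, because aldh8a1 and amacr fall below it in eggs. amacr also falls below it in polyA-selected oocytes. It can be passed through 1 genotype. In polyA-selected embryos 6 ski7-/- and 0 WT libraries of aldh8a1 reached 10 CPM, and 12 ski7-/- and 1 WT of amacr. In eggs 8 ski7-/- and 0 WT libraries of pex14 did, and in rRNA-depleted oocytes 0 ski7-/- and 3 WT libraries of amacr. A call kept under this filter is therefore not separate support. Steps between periods were fitted over all 66 polyA-selected libraries. Differences between periods and kinds of library used limma-voom 3.58.1 with the replicate set as a random block. Other alternatives were DESeq2 1.42.0, its size factors, library size only, no filter, the replicate number as a block, 1 replicate left out, the transcript counts and 1 fit per stage. The fits were tested on simulated data.

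The members and lists were chosen with earlier results of these data known. Genes were named as the 3 members, the 5 genes on each side of hbs1l, the 3 genes most correlated with each member, and up to 4 genes of each list with the most period averages called. Some genes that this rule names are not reported here. Gene order came from the RefSeq annotation of GRCz12tu, and since the files use GRCz11 no coordinates are given. Identical libraries were looked for and none was found. Most same-numbered ski7-/- and WT libraries did not deviate together (57 pairs, correlation -0.246 to 0.286, of which 7 were over 0.1), so the numbers were not taken to pair the samples. This check cannot exclude a shared batch, which the labels do not give. The labels do not say whether embryos of a replicate number share a clutch, and p-values measure the spread between these samples. Reads are not independent molecules, and low counts carry counting error in addition.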

Additional observations from a re-analysis of the deposited data

Results flagged for a closer look

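The genotype difference of 2 of the 3 genes changed between periods of the transition by a test of the change itself, in polyA-selected RNA. For aldh8a1 the log2 fold change of ski7-/- over WT was larger by 1.44 in eggs and by 1.76 in embryos than in oocytes (adjusted p = 0.033 and 0.0069). For amacr it was larger by 1.01 in embryos than in eggs and by 1.85 than in oocytes (adjusted p = 0.049 and 0.00025), and only the last of the 4 was called in every alternative that was run. The transcript counts were not among these alternatives. With them the polyA-selected averages of amacr were -0.73 in oocytes and 0.24 in embryos.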

How the results depend on the processing

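Of 1784 values of the 3 genes recomputed under an alternative, 1592 kept their direction and their side of the threshold, 102 lost and 43 gained a call, 45 changed sign and 2 moved by more than the replicate spread. The cause of these changes was not tested. All period averages of aldh8a1, and the averages of amacr in polyA-selected oocytes and embryos and of pex14 in eggs and rRNA-depleted libraries, were called in every alternative that was run. Among these, the 10 CPM filter was passed through ski7-/- libraries for aldh8a1 and amacr in embryos and for pex14 in eggs. Scaling by library size only moved the median of all genes by up to 0.305 and DESeq2 size factors by up to 0.0384 (log2). Of 650 counts over the gene lists, 102 moved by more than 1.5 times.

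With library size only, log2 values were -0.79 and -0.82 for aldh8a1 in WT O4 against O1 (polyA-selected and rRNA-depleted, calls lost), 0.13 for amacr in that step, 0.51 for amacr in eggs (called), 0.14 for aldh8a1 and 0.29 for amacr in ski7-/- E4 against E1, 0.23 for amacr in WT E4 against E1, 0.12 for pex14 in rRNA-depleted ski7-/- O4 against O1, and 0.21 for pex14 in ski7-/- E1 against FER. It also gave -1.25 for amacr in WT UNA against O4, and 1.26 for pex14 and 1.01 for amacr in WT E1 against FER (all called). Among differences between periods it gave 1.22 for amacr in eggs minus oocytes and -1.01 for pex14 in embryos minus eggs (called), and 0.73 for amacr in embryos minus eggs (lost). With no filter, aldh8a1 had -0.95 in ski7-/- and -0.96 in WT O4 against O1 (lost), pex14 0.34 in polyA-selected embryos (lost) and 0.073 in ski7-/- E1 against FER. With the 10 CPM filter pex14 had 0.019 in rRNA-depleted ski7-/- O4 against O1 and 0.78 in WT E1 against FER (called). DESeq2 size factors gave -0.025 for amacr in FER and -0.083 for aldh8a1 in WT E4 against E1, and the DESeq2 test -0.012 and -0.031. With the replicate as a random block (the female in oocytes and eggs, only the number in embryos) amacr had 0.088 in WT O4 against O1 and 0.84 in ski7-/- UNA against O4 (called), aldh8a1 -0.46 in WT E1 against FER, and pex14 0.34 in embryos (lost). The transcript counts gave -0.024 for pex14 and -0.37 for aldh8a1 in WT FER against UNA, -0.93 for amacr in rRNA-depleted oocytes (called) and 0.17 in embryos (lost), 0.054 for pex14 in rRNA-depleted ski7-/- O4 against O1, -0.017 for aldh8a1 in ski7-/- and -0.13 for amacr in WT rRNA-depleted E4 against E1, and -0.61 and 1.10 for amacr in WT UNA against O4 and E1 against FER (called). edgeR with independent libraries gave 0.91 for amacr in eggs minus oocytes (called) and -0.067 for amacr between kinds of library in embryos.

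Leaving out 1 replicate gave 0.28 to 0.63 for pex14 in polyA-selected oocytes and 0.29 to 0.41 in embryos, and -0.97 to 0.041 for amacr in rRNA-depleted oocytes. For amacr it gave -0.0041 to 0.38 in ACT, -0.16 to 0.24 in FER, -0.87 to 0.16 at O3 and -0.87 to 0.22 at O4 of rRNA-depleted RNA. For O4 against O1 it gave -1.19 to -0.86 (ski7-/-) and -1.30 to -0.56 (WT) for aldh8a1 in polyA-selected RNA, -1.56 to -0.94 and -1.37 to -0.64 in rRNA-depleted RNA, -0.14 to 0.25 for amacr in WT, and -0.021 to 0.10 for pex14 in rRNA-depleted WT. For FER against UNA aldh8a1 had -0.0080 to 0.30 in ski7-/- and -0.051 to 0.26 in WT. For E4 against E1 the ranges were 0.51 to 1.24 for pex14 in WT, -0.41 to 0.81 for aldh8a1 in WT, -0.039 to 0.26 for aldh8a1 in rRNA-depleted ski7-/- and -0.71 to 0.028 for pex14 in rRNA-depleted WT. For UNA against O4 in ski7-/- they were -1.29 to -0.81 for pex14, -1.33 to -1.10 for aldh8a1 and 0.51 to 0.89 for amacr, and for E1 against FER -0.14 to 0.15 for pex14 in ski7-/-, and 0.55 to 1.11 for pex14 and -0.51 to 0.52 for aldh8a1 in WT. Between periods they were 1.23 to 1.60 (eggs minus oocytes) and 1.58 to 1.97 (embryos minus oocytes) for aldh8a1, 0.83 to 1.22 (embryos minus eggs) for amacr and -0.33 to 0.067 (embryos minus oocytes) for pex14, and between kinds of library -0.0073 to 0.18 for amacr in embryos. The number of comparisons of a stage called higher was 1 to 6 for amacr and 3 to 8 for pex14. With 1 fit per stage it was 6 for aldh8a1 and 0 for amacr, with the transcript counts amacr had 0 higher and 2 lower, and for pex14 it was 8 with the random block and 3 with no filter.

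With the replicate number as a block, 117 of 129 values kept their direction and side. amacr had 0.022 in WT O4 against O1 and -0.0086 in FER, and pex14 0.019 in ski7-/- E1 against FER, each with a changed sign. pex14 had 0.80 in WT E1 against FER and -0.64 in embryos minus eggs, and amacr 0.75 in eggs minus oocytes, all called. pex14 was called higher at 10 comparisons of a stage and amacr lower at 1. Only 29 of 114 libraries correlated best with their own number.

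At E2 of rRNA-depleted RNA 2 to 4 reads of aldh8a1 were counted in a WT library, which limits the precision of that fold.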

Other observations

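The read count of aldh8a1 was the same (124, 217 and 595 reads) in the 3 ski7-/- polyA-selected libraries of O2 and the 3 ski7-/- rRNA-depleted libraries of O1, the only one of 7525 genes with at least 100 reads for which all 3 counts were equal. The counts of other genes differed between these libraries.

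The share of genes called near hbs1l was set beside that of all genes, for a window that was chosen after the values were seen and that was not tested. Of the genes within 60 protein-coding genes on either side, 52.4% were called in polyA-selected oocytes, 52.6% in eggs, 56.5% in polyA-selected embryos, 61.5% in rRNA-depleted oocytes and 52.3% in rRNA-depleted embryos, beside 36.0%, 45.4%, 46.0%, 42.4% and 37.6% of all genes tested. Over the whole chromosome the shares were 43.0%, 47.2%, 50.4%, 52.3% and 42.0% in the same order. Within 5 genes on either side 5 or 6 genes were tested, of which 4, 5, 3, 5 and 2 were called, and in rRNA-depleted embryos that share (33.3%) was below that of all genes. These windows leave out hbs1l but count aldh8a1, which was called in all 5 averages, and the wider ones also count pex14. Both were chosen for raised proteins, so these shares are not free of the choice. In rRNA-depleted embryos the 2 genes called within 5 genes were aldh8a1 and sgk1.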
